A study of Homo sapiens with 8 samples.

Results

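Jurkat cells that resist TRAIL and had taken SAHA were compared with the sensitive Jurkat cells they came from. The comparison covers 4 of the 8 arrays of the series. The 2 arrays of the resistant clone TR1 after 12 h with 1 µM SAHA are set against the 2 arrays of the untreated parent line, called WT. Jurkat is a human T cell leukaemia line. TR1 is 1 clone of it, selected with 1000 ng/mL TRAIL for 12 weeks, so that any feature of this clone is part of the difference. SAHA, also called vorinostat, inhibits histone deacetylases. The 2 arrays of untreated TR1 and the 2 of TR1 with 0.5 µM SAHA for 12 h are given beside the results as values. Clone and drug differ together between the groups compared, so their parts in a difference cannot be told apart from these 4 arrays alone. The labels call the samples biological duplicates and say no more about separate cultures, so the p-values measure only the spread between such samples.

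TRAIL, a member of the tumour necrosis factor family, binds the death receptors encoded by TNFRSF10A and TNFRSF10B, which recruit the adaptor FADD and the initiator caspases 8 and 10. In many cells the signal is carried on by BCL2 family proteins, which decide whether mitochondria release factors that start the caspase cascade. Histone deacetylases remove acetyl groups from histones and other proteins, and their inhibitors are known to raise the cyclin-dependent kinase inhibitor CDKN1A and to lower MYC in many leukaemia lines.

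The promoters of a few genes are shown first, because groups of genes that moved together are described against them below. Each window runs from 250 bases before to 50 bases after the start of the gene in RefSeq (GRCh38.p14), 5′ to 3′ on the gene's strand. The capitals mark GGGCGG, the GC box bound by SP1 family factors, in CDKN1A, and CACGTG, the E-box bound by MYC and related factors, in RRP9 and DDX21. CDKN1A is on the plus strand at chr6:36678464-36678763, RRP9 on the minus strand at chr3:51941855-51942154 and DDX21 on the plus strand at chr10:68956397-68956696. CDKN1A was chosen as the kinase inhibitor with the largest change. RRP9 and DDX21 had the largest falls among the ribosome biogenesis genes that hold the E-box.
CDKN1A: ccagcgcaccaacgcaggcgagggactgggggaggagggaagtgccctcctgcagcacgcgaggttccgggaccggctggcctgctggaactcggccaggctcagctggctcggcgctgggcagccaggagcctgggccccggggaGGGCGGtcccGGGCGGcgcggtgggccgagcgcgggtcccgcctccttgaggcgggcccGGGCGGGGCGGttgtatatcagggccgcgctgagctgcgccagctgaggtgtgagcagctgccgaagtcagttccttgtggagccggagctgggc
RRP9: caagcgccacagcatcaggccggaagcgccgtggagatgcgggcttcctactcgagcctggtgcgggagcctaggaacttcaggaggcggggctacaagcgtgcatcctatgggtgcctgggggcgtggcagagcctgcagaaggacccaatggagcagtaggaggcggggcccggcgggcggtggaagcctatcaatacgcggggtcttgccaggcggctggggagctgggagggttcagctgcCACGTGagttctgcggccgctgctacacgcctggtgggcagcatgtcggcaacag
DDX21: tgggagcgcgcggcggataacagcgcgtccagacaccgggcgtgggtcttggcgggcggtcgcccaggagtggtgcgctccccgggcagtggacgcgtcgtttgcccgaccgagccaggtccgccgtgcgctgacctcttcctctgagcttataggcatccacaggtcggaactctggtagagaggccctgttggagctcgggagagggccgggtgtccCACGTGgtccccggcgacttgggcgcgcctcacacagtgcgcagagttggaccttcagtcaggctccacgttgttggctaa
The CDKN1A window holds 4 GC boxes, and the 2 nearest to the start share 1 base. They begin 104, 94, 45 and 40 bases before the start.

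Messenger RNA was read on Illumina HumanRef-8 BeadChips. All values below are background-corrected, quantile-normalized log2 intensities of a probe, and a difference is always TR1 with 1 µM SAHA minus WT unless stated otherwise. Of 22184 probes, 12947 were detected (detection p-value below 0.05) on at least 2 of the 4 arrays and were tested. Between 12089 and 12987 probes per array were detected on these 4 arrays, and the number of arrays limits the precision. Duplicates differed with an SD over probes of 0.23 for 1 µM SAHA and 0.27 for WT. T cell identity was checked first: 11 of 11 listed T cell markers passed the detection filter, although CD3D was dim. Markers of other cell types passed less completely, with 5 of 7 for B cells, 3 of 9 for myeloid, 4 of 8 for erythroid, 2 of 8 for epithelial and 2 of 8 for stromal cells. Among these, EBF1 and COL1A1 were undetected on both WT arrays and detected on both 1 µM arrays, at least 1.58-fold and 1.90-fold higher. Both passed the detection filter only through the 1 µM arrays, so they could appear here only as higher. BLK, CD79A and TFRC were lower at 1 µM SAHA. Less RNA of a gene per cell and fewer cells that carry it cannot be told apart in these bulk samples.

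Of the 12947 probes tested, 36.0% differed between the SAHA-treated clone and the parent. With limma, 4655 had a Benjamini-Hochberg adjusted p below 0.05 and count as called here. Of these, 2309 were higher (17.8% of those tested) and 2346 lower (18.1%). Higher probes had a median of 1.56-fold above WT and lower probes a median of 1.49-fold below it. Leaving out either array of 1 µM SAHA lowered the count to 3091 (without A) and 3094 (without B). Large rises outnumbered large falls: 427 probes were at least 2-fold higher (3.30% of those tested) and 253 at least 2-fold lower (1.95%). At 4-fold the numbers were 46 higher and 12 lower. Probes that were at least 2-fold higher had a median WT level of 6.36, and those at least 2-fold lower 8.73, against 7.81 over all tested probes. The WT values are part of the difference by which these probes were chosen. The choice itself therefore favours low WT levels among the rises and high ones among the falls. Without background correction the changes of dim probes were smaller, and 185 probes were at least 2-fold higher and 121 at least 2-fold lower.

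**Figure D1:**
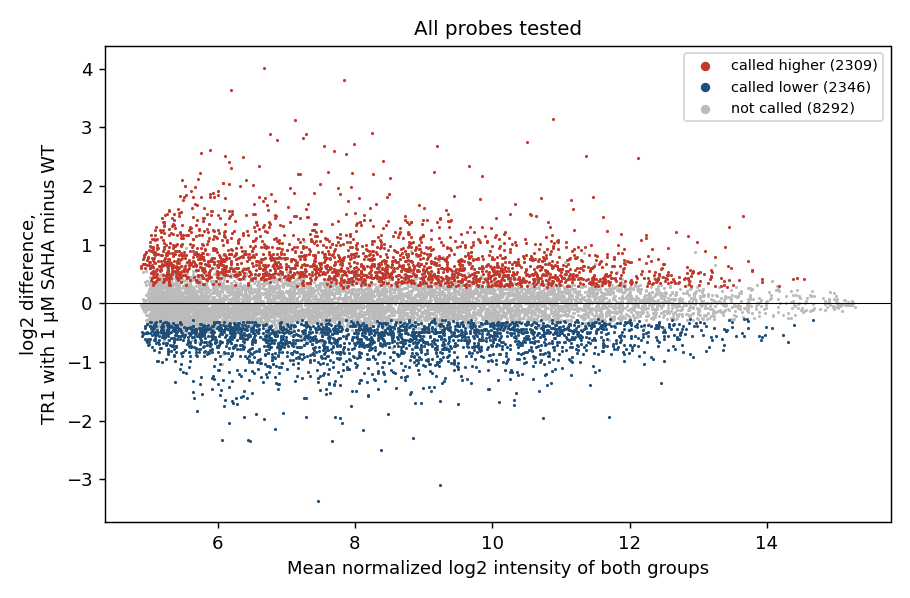
log2 difference (TR1 with 1 µM SAHA minus WT) against the mean normalized log2 intensity of both groups, 1 point per tested probe. The 2309 probes called higher are red, the 2346 called lower are blue, and the largest differences, from -3.36 to 4.02, lie mostly upward and at low to middle intensity.

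The 12 genes with the largest rises and the 12 with the largest falls were taken from called genes whose groups did not overlap, so the lack of overlap is set by that choice. MARCKS, a membrane protein that binds actin and is a substrate of protein kinase C, had 8.57 and 8.80 at 1 µM SAHA and 4.59 and 4.74 in WT, undetected on both WT arrays, which puts the rise at 12.0-fold or more (limma adjusted p = 3.82e-06). ACTA2, smooth muscle actin, had 9.76 and 9.65 at 1 µM SAHA and 6.92 and 6.67 in WT, 7.51-fold higher (limma adjusted p = 5.83e-06). FSCN1, which bundles actin filaments, had 10.51 and 10.58 at 1 µM SAHA and 7.55 and 8.16 in WT, 6.46-fold higher (limma adjusted p = 6.12e-05).

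IER3, an immediate early gene that modulates survival, had 12.48 and 12.43 at 1 µM SAHA and 8.70 and 9.93 in WT (log2 difference 3.14, SE 0.32, limma adjusted p = 0.000309). Its WT arrays stood far apart, and the difference was 2.52 without WT array A and 3.74 without WT array B. TMEM158, a gene first described as induced by Ras in senescent cells, had 8.68 and 8.69 at 1 µM SAHA and 5.55 and 5.58 in WT, 8.71-fold higher (limma adjusted p = 3.82e-06). RHEX, a regulator of erythropoietin signalling, had 7.98 and 8.04 at 1 µM SAHA and 4.41 and 4.34, undetected, in WT, a rise of at least 7.55-fold (limma adjusted p = 3.82e-06). AKR1C3, an aldo-keto reductase of steroid metabolism, had 8.79 and 8.67 at 1 µM SAHA and 5.57 and 6.11 in WT (7.43-fold), though probes of this family can be shared by its near-identical members. The other 5 were CABCOCO1 (13.9-fold), CRIP2 (7.38-fold), PRSS2 (7.05-fold), CCM2L (6.89-fold) and SHISA2 (6.72-fold), all with a limma adjusted p of at most 9.23e-05. CCM2L was detected on 1 of the 2 WT arrays, and PRSS2 has near-identical trypsinogen copies.

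Among the falls, IL32, a cytokine of T and natural killer cells, had 5.66 and 5.89 at 1 µM SAHA and 8.62 and 9.66 in WT, 10.3-fold lower (limma adjusted p = 0.000129). GIMAP4, a GTPase of lymphocytes, had 9.75 and 9.76 at 1 µM SAHA and 11.84 and 11.57 in WT, 3.86-fold lower (limma adjusted p = 4.47e-05). RASGRP2, an exchange factor for the small GTPase Rap1, had 6.83 and 6.77 at 1 µM SAHA and 9.0 and 8.53 in WT, 3.90-fold lower (limma adjusted p = 0.000198). RGL4, related to exchange factors for Ral, had 7.17 and 7.10 at 1 µM SAHA and 9.69 and 9.57 in WT, 5.64-fold lower (limma adjusted p = 5.83e-06). MYBBP1A, a nucleolar protein, had 5.68 and 5.70 at 1 µM SAHA and 7.61 and 7.70 in WT, 3.91-fold lower (limma adjusted p = 0.000146). SH3TC1 was 8.50-fold, KLHL35 5.10-fold, LIMS2 5.05-fold, LKAAEAR1 4.45-fold, PLD6 4.42-fold and BIN1 4.07-fold lower, all with a limma adjusted p of at most 0.000121. The remaining 1 of the 12 is a Y-linked gene that is not described here.

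**Figure D2:**
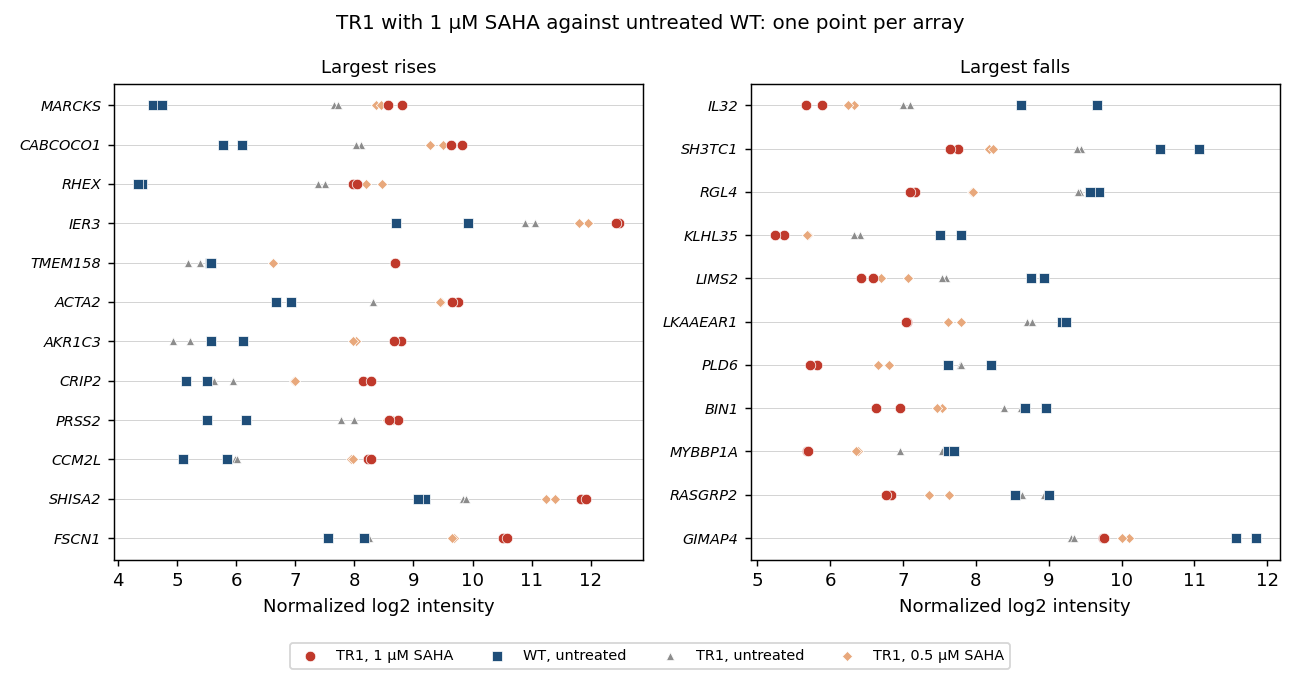
Normalized log2 intensity of the genes with the largest rises (left) and falls (right), 1 point per array, 2 arrays per group. Genes were chosen so that TR1 with 1 µM SAHA (red) and WT (dark blue) do not overlap. Untreated TR1 (grey) lies near WT in some, such as TMEM158 and RGL4, and near the treated clone in others, such as MARCKS and GIMAP4.

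The genes differ in where untreated TR1 stood. The difference from WT is by construction the sum of the difference between untreated TR1 and WT and that between TR1 with 1 µM SAHA and untreated TR1, which share arrays with it. These are called the clone difference, past the test for 8.36% of probes, and the drug difference, past it for 26.5%. For MARCKS these parts were 3.02 and 0.99 on the log2 scale, and for RHEX 3.07 and 0.57. Both were undetected in WT, so their clone parts rest on undetected values. TMEM158 had the opposite makeup, with -0.28 for the clone and 3.40 for the drug. Only 1 of the 2 arrays of untreated TR1 detected it, so both of its parts rest on a level near the detection limit. AKR1C3 had -0.76 and 3.65, but neither array of untreated TR1 detected it, so both of its parts rest on undetected values. CRIP2 (0.45 and 2.43) and FSCN1 (0.36 and 2.33) were likewise near the WT level in untreated TR1. Both parts were large for CABCOCO1 (2.14 and 1.66), IER3 (1.66 and 1.48) and ACTA2 (1.53 and 1.38).

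RGL4 had -0.22 for the clone and -2.28 for the drug, and RASGRP2 had 0.02 and -1.98. IL32 had -2.10 for the clone and -1.27 for the drug, and SH3TC1 had -1.37 and -1.71. GIMAP4 was the reverse: its clone difference was -2.38, and at 1 µM SAHA it was 0.43 above untreated TR1 and still below WT. The medians over the 427 probes at least 2-fold higher were 0.39 for the clone and 0.90 for the drug, and over the 253 at least 2-fold lower -0.32 and -0.93. At 0.5 µM SAHA the median differences from WT of the same probes were 0.99 and -0.86, against 1.29 and -1.24 at 1 µM. The probes were chosen by their difference at 1 µM, which favours larger values there. These medians are therefore no comparison of the doses.

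Among called probes, 205 that were undetected on both WT arrays were higher, and 114 that were undetected on both 1 µM arrays were lower. Such probes passed the detection filter only through the group where they were brighter. The imbalance was larger with a stricter limit. Then 105 (0.811% of those tested) had a detection p-value below 0.01 on both 1 µM arrays and were not detected on either WT array. The reverse held for 11 (0.0850%). Beside MARCKS and RHEX the probes within the stricter limit include genes named here after their values were seen. PRPH, the neuronal intermediate filament peripherin, had 7.28 and 7.13 at 1 µM SAHA and 4.6 and 4.57 in WT, at least 4.32-fold higher. ABCA1, a cholesterol exporter, had 7.0 and 7.1 at 1 µM SAHA and 4.43 and 4.52 in WT, at least 3.88-fold higher. CCND1 and CCND2, D-type cyclins that activate CDK4 and CDK6, were at least 2.73-fold and 2.72-fold higher and were also undetected in untreated TR1. In the reverse direction ZNF544 was at least 2.84-fold and MYO5C, a motor protein, at least 2.58-fold lower. Without WT array B, 206 probes appeared.

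The receptors for TRAIL were higher in the treated clone. TNFRSF10A had 6.12 and 6.05 at 1 µM SAHA and 4.47 and 4.52 in WT, where neither array detected it, at least 1.99-fold higher (limma adjusted p = 4.42e-05). TNFRSF10B had 10.07 and 10.09 at 1 µM SAHA and 9.14 and 9.41 in WT, 1.74-fold higher (limma adjusted p = 0.00161). Untreated TR1 stood close to WT for both, with 4.73 for TNFRSF10A, undetected on both arrays, and 9.47 for TNFRSF10B. TNFSF10, which encodes TRAIL itself, had 6.49 and 6.87 at 1 µM SAHA and 5.36 and 5.65 in WT, 2.26-fold higher (limma adjusted p = 0.00164), and 6.37 in untreated TR1. Of the 12 receptors and ligands of the list that had a named probe, 6 were tested, and these 3 were higher and 0 lower (limma), beside 18.6% higher and 18.3% lower over the 10592 genes tested. TNFRSF10A passed the detection filter only through the 1 µM arrays, so in this count it could only be higher. At an unadjusted p below 0.05, 1 gene of the list was lower, TNFRSF25 (log2 difference -0.54). The probes of the decoy receptors TNFRSF10C and TNFRSF10D did not pass the detection filter.

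Next are the genes just downstream of the receptors. FADD had 10.26 and 10.25 at 1 µM SAHA and 10.17 and 10.27 in WT (log2 difference 0.03, SE 0.10, limma adjusted p = 0.817). The brighter CASP8 probe had 7.34 and 7.01 at 1 µM SAHA and 6.73 and 6.95 in WT and did not pass (limma adjusted p = 0.0871). The other CASP8 probe was higher by 0.67 (limma adjusted p = 0.0266). It was undetected on both WT arrays and passed the detection filter only through the 1 µM arrays. CFLAR, the caspase-8 inhibitor FLIP, had 6.61 and 6.34 at 1 µM SAHA and 5.97 and 6.39 in WT (limma adjusted p = 0.234). Its level in untreated TR1 was higher, at 7.23, with a clone difference of 1.04 (limma adjusted p = 0.0117) and a drug difference of -0.75 (limma adjusted p = 0.0158). In the list of adaptors, initiator caspases and inhibitors, 1 of 9 tested genes was higher and 0 lower, beside 18.6% and 18.3% over all genes. With so few genes this count is no result about the list. The higher gene was the deubiquitinase CYLD (log2 difference 0.56, limma adjusted p = 0.037), and it lost its call in 8 of 17 alternatives.

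BCL2 family members that promote death changed both ways. BMF, a BH3-only protein, had 6.14 and 6.26 at 1 µM SAHA and 4.57 and 4.77, undetected, in WT, a rise of at least 2.16-fold (limma adjusted p = 0.000883). BNIP3L, a mitochondrial BH3-like protein, was higher by 0.99 (limma adjusted p = 0.00482), and the BH3-only HRK by 0.48 (limma adjusted p = 0.0342). In contrast the pore-forming BAX had 5.85 and 5.88 at 1 µM SAHA and 6.80 and 6.42 in WT, 1.68-fold lower (limma adjusted p = 0.00389). BID, which caspase-8 cleaves to link death receptors to mitochondria, had 9.28 and 9.31 at 1 µM SAHA and 10.09 and 9.84 in WT, 1.59-fold lower (limma adjusted p = 0.00222), although its dimmer probe did not pass (limma adjusted p = 0.802). The BH3-only genes BIK and BAD were also lower (log2 difference -0.54 and -0.42). In all, 3 of 12 tested genes of this kind were higher and 4 lower, beside 18.6% and 18.3% over all genes. Their median difference was -0.20 against -0.03 over all genes. Without array A of 1 µM SAHA 1 was higher. BMF passed the detection filter only through the 1 µM arrays, so it could count only as higher.

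The protective BCL2L2 had 6.84 and 6.76 at 1 µM SAHA and 4.91 and 5.04 in WT, where 1 of 2 arrays detected it (log2 difference 1.82, limma adjusted p = 0.000892). The other protective members did not pass: BCL2 differed by 0.45 (limma adjusted p = 0.0527), BCL2L1 by 0.24 (limma adjusted p = 0.137) and MCL1 by -0.10 (limma adjusted p = 0.841), whose duplicates stood wide apart in both groups. BCL2 passed in 7 of 17 alternatives, among them without WT array A, where it differed by 0.62 (limma adjusted p = 0.0305). BCL2 was higher in untreated TR1 than in WT by 0.80 (limma adjusted p = 0.018). Among the IAP proteins, which bind and block caspases, XIAP and BIRC5 did not pass (limma adjusted p = 0.957 and 0.244), and BIRC6 was lower by 0.41. That is 1 of 4 tested lower and 0 higher, beside 18.3% and 18.6% over all genes, too few to read as a result.

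In the execution list 2 of 12 tested genes were higher and 2 lower, near the 18.6% and 18.3% over all genes. APAF1, the scaffold that activates caspase-9, had 10.09 and 10.26 at 1 µM SAHA and 9.04 and 9.37 in WT, 1.96-fold higher (limma adjusted p = 0.00117). ENDOG, a mitochondrial endonuclease, had 8.96 and 8.90 at 1 µM SAHA and 10.24 and 10.08 in WT, 2.35-fold lower (limma adjusted p = 0.000119). DFFB, the caspase-activated DNase, was 1.55-fold lower (limma adjusted p = 0.00206), and PARP1 was higher by 0.34 (limma adjusted p = 0.023). PARP1 lost its call in 5 of 17 alternatives, among them without WT array B and without either array of 1 µM SAHA.

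**Figure D3:**
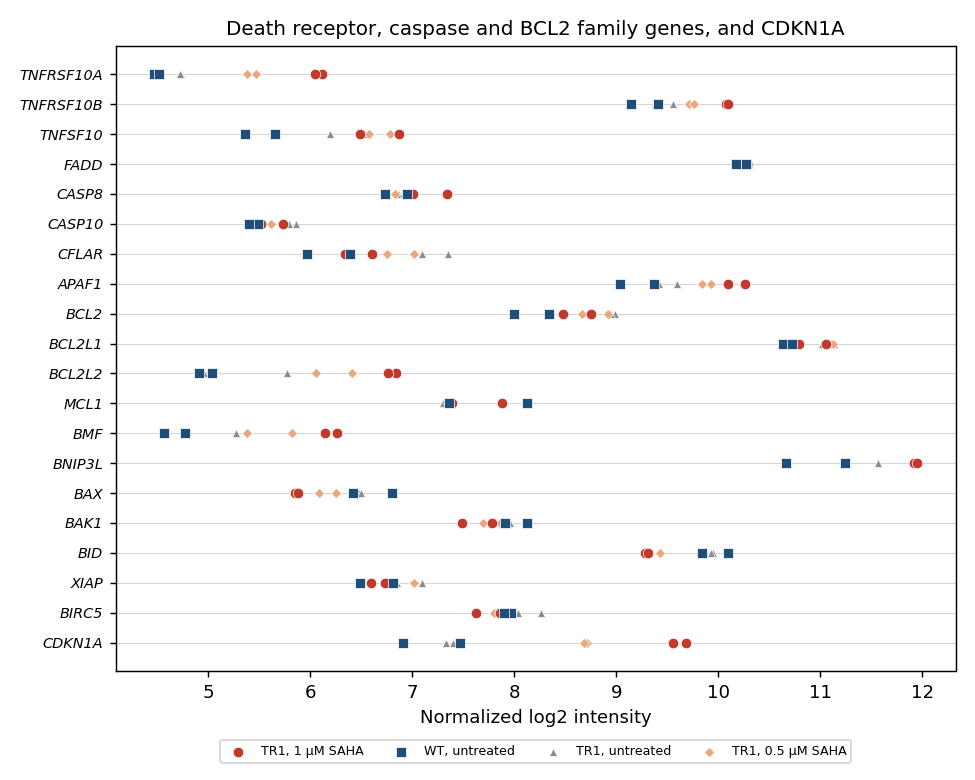
Normalized log2 intensity of death receptor, caspase, BCL2 family and IAP genes and of CDKN1A, 1 point per array. Among the called genes, TR1 with 1 µM SAHA (red) stands to the right of WT (dark blue) for TNFRSF10A, TNFRSF10B, TNFSF10, APAF1, BCL2L2, BMF, BNIP3L and CDKN1A, and to the left for BAX and BID. Among those not called, CASP8, CASP10, BCL2 and BCL2L1 also stand to the right and BAK1 and BIRC5 to the left, while FADD, CFLAR, MCL1 and XIAP overlap.

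CDKN1A, which arrests the cell cycle by binding cyclin-dependent kinases, had 9.68 and 9.56 at 1 µM SAHA and 6.91 and 7.47 in WT. It was 5.39-fold higher (log2 difference 2.43, SE 0.17, limma adjusted p = 7.91e-05). Its level was 7.37 in untreated TR1 and 8.69 at 0.5 µM SAHA. CDKN1B, a related inhibitor, was higher by 0.83 (limma adjusted p = 0.00192), and CDKN2D by 0.42 on its brighter probe (limma adjusted p = 0.0162) but not on the other (limma adjusted p = 0.783). CDKN2D lost its call in 3 of 17 alternatives, among them without WT array A and without array A of 1 µM SAHA. Of the 5 tested, 3 were higher and 0 lower with limma, beside 18.6% and 18.3% over all genes, and CDKN1C and CDKN3 did not pass. At an unadjusted p below 0.05, 0 were lower too, which says little for so few genes. The GC box of the CDKN1A promoter shown above is common: at least 1 GGGCGG on either strand occurred in 73.9% of genes called at least 2-fold higher that had a window, 75.5% of those called at least 2-fold lower and 75.1% of all tested genes.

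Of 29 mitotic genes, 12 were higher and 2 lower, with a median difference of 0.23. Over all 10592 genes tested, 18.6% were higher and 18.3% lower. PTTG1, the securin that delays the separation of sister chromatids, had 12.80 and 12.81 at 1 µM SAHA and 11.65 and 11.74 in WT, 2.16-fold higher (limma adjusted p = 0.000418). The spindle motor KIF11 and the midzone protein PRC1 were higher by 0.72 and 0.68, whereas the cyclin CCNA2 and the ubiquitin-conjugating enzyme UBE2C were lower by 0.49 and 0.48. Without array B of 1 µM SAHA only 6 mitotic genes were higher. Of 34 replication genes, 7 were lower and 1 higher, with a median of -0.10. The lower share of this list was near that over all genes. CCNE1, the cyclin of S phase entry, was 2.01-fold lower (limma adjusted p = 0.00188), and the helicase subunit MCM5 had 10.30 and 10.22 at 1 µM SAHA and 11.17 and 11.07 in WT, 1.82-fold lower (limma adjusted p = 0.000541). Without WT array A 3 replication genes were lower, and without array A of 1 µM SAHA 4.

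Ribosome biogenesis was the list with the most members lower. The lists were chosen with earlier results of these data known, so this rank may be partly set by the choice. Of 17 tested nucleolar genes, 14 were lower and 0 higher in the treated clone (limma), beside 18.3% lower and 18.6% higher over all genes. Their median difference was -0.73 against -0.03 over all genes. At an unadjusted p below 0.05, 16 were lower and still 0 higher. NOP16 had 9.86 and 9.81 at 1 µM SAHA and 11.18 and 10.91 in WT, 2.31-fold lower (limma adjusted p = 0.000254). RRP9, a protein of the U3 small nucleolar particle, had 9.22 and 9.23 at 1 µM SAHA and 10.42 and 10.20 in WT, 2.13-fold lower (limma adjusted p = 0.000309). BOP1, which acts with PES1 in large subunit assembly, was 2.04-fold lower (limma adjusted p = 0.000401), and nucleolin (NCL) 1.98-fold lower (limma adjusted p = 0.0036). The 3 that did not pass were NOP58 and the polymerase I subunits POLR1A and POLR1B. DDX21, a nucleolar helicase, had 11.32 and 11.27 at 1 µM SAHA and 12.28 and 12.03 in WT, 1.81-fold lower (limma adjusted p = 0.000814). The groups did not overlap in any of these 5 called genes, which adds no support, since they were named from the called ones. The median clone difference of the list was -0.01, and the median difference between 1 µM SAHA and untreated TR1 was -0.76.

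MYC, the transcription factor that drives growth genes, had 11.44 and 11.43 at 1 µM SAHA and 12.46 and 12.38 in WT, 1.98-fold lower (limma adjusted p = 0.00028). The MYC level was 12.52 in untreated TR1 and 11.79 at 0.5 µM SAHA. The E-box CACGTG of the RRP9 and DDX21 promoters shown above, which reads the same on both strands, was found in 6 of the 13 tested ribosome biogenesis genes that had a window (46.2%). It occurred in 26.4% of the genes called at least 2-fold lower, 7.22% of those called at least 2-fold higher and 12.7% of all tested genes with a window, and in 7.26% of all 35116 windows. A match is a description of these letters and not evidence of binding.

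**Figure D4:**
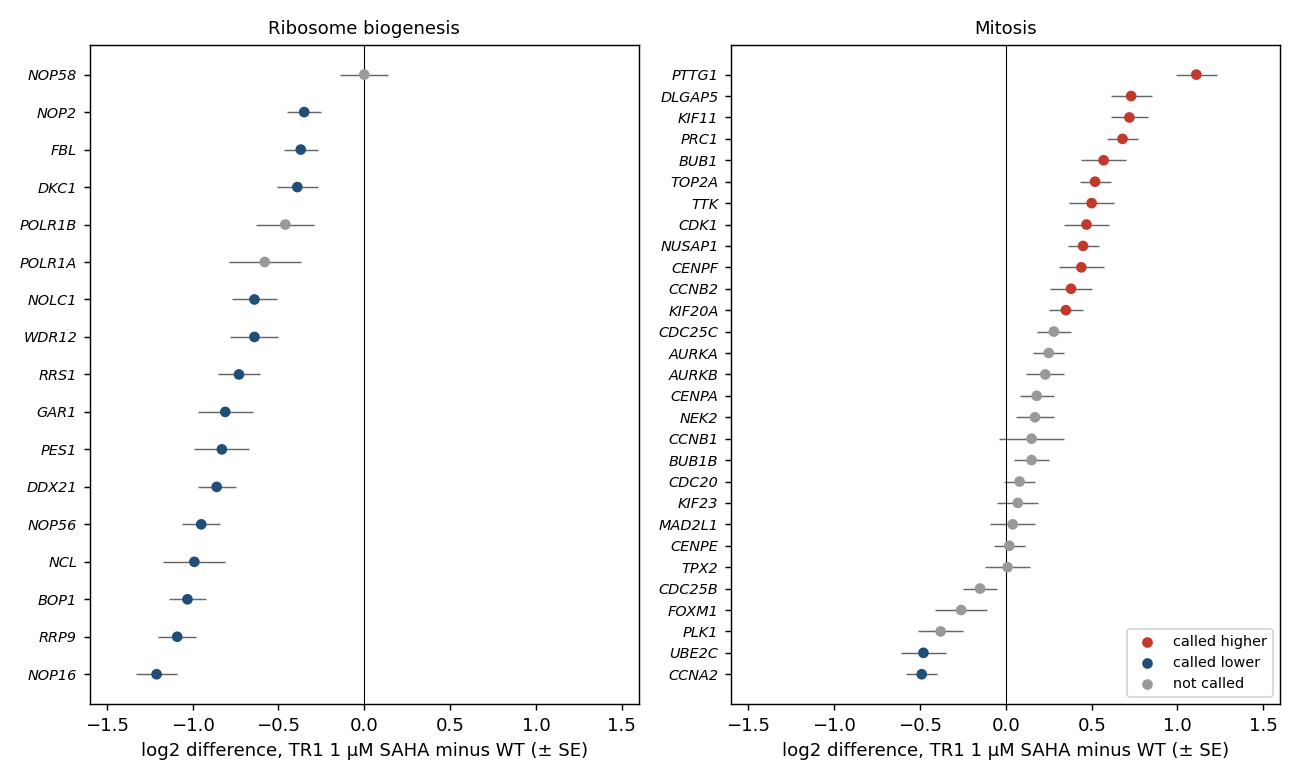
log2 difference (TR1 with 1 µM SAHA minus WT, ± SE of the fit, 2 arrays per group) of each tested ribosome biogenesis gene (left) and mitotic gene (right). In the left panel 14 of 17 genes are called lower (blue) and none higher. In the right panel 12 of 29 are called higher (red) and 2 lower, and every called gene but PTTG1 differs by at most 0.73.

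Genes of T cell identity changed in both directions. Of 22 tested transcription factors of thymocytes and T cell leukaemia, 9 were higher and 7 lower, beside 18.6% and 18.3% over all genes. GATA3, a lineage factor of T cells, had 9.92 and 10.02 at 1 µM SAHA and 8.49 and 8.54 in WT, 2.74-fold higher (limma adjusted p = 6.12e-05). TOX, a factor of thymocyte development, was 2.45-fold higher (limma adjusted p = 0.000722). RUNX1, TAL1 and MYB, which act together in T cell leukaemia, were higher by 0.78, 0.58 and 0.57. Their clone differences were 1.15, 0.41 and 0.39, of which that of TAL1 did not pass (limma adjusted p = 0.0801). A dim further probe of RUNX1 did not pass in the treated clone (log2 difference -0.31). NOTCH1, the receptor that drives T lineage commitment, had 9.76 and 9.48 at 1 µM SAHA and 10.86 and 10.94 in WT, 2.42-fold lower (limma adjusted p = 0.000216). Its target DTX1 was 2.95-fold lower (limma adjusted p = 0.000106), and HES1, another target, was lower by 0.45 (limma adjusted p = 0.0241) with a clone difference of 1.04.

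In the T cell receptor pathway, 7 of 24 tested genes were lower and 4 higher, beside 18.3% and 18.6% over all genes. The receptor chain CD3E had 8.90 and 9.03 at 1 µM SAHA and 10.00 and 9.85 in WT, 1.94-fold lower (limma adjusted p = 0.000923). The kinase ZAP70 was 1.89-fold lower (limma adjusted p = 0.000972), and the adaptor SLA2, a negative regulator of the receptor, had 7.93 and 8.17 at 1 µM SAHA and 9.71 and 9.43 in WT, 2.86-fold lower (limma adjusted p = 0.000158). The kinase PRKCQ was higher by 0.64 and the phospholipase PLCG1 by 0.51. Of the 11 T cell surface and lineage markers, 5 were lower and 1 higher. CD7 had 9.27 and 9.25 at 1 µM SAHA and 10.70 and 11.18 in WT, 3.21-fold lower (limma adjusted p = 0.000175), and CD5 was 2.52-fold lower (limma adjusted p = 0.000709). Without array B of 1 µM SAHA, 4 receptor pathway genes and 3 markers were lower, and without WT array B 3 markers were.

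Antigen presentation genes also split. HLA-DMB and HLA-DMA, which load peptides onto class II molecules, were both higher: HLA-DMB had 7.0 and 6.92 at 1 µM SAHA and 5.07 and 5.02 in WT, where 1 array detected it (limma adjusted p = 3.28e-05). Most class II genes, such as HLA-DRA and HLA-DRB1, did not pass the detection filter. In the class I list 3 of 10 were higher and 3 lower, beside 18.6% and 18.3% over all genes. Higher were HLA-E (2.31-fold, limma adjusted p = 0.000542), HLA-B and B2M. The lower ones were the immunoproteasome subunits PSMB10 and PSMB8 and the peptide-loading factor TAPBP. PSMB10 had 10.76 and 10.69 at 1 µM SAHA and 12.66 and 12.68 in WT, 3.85-fold lower (limma adjusted p = 2.43e-05). TAPBP was lower on its brighter probe, and its other probe did not pass (limma adjusted p = 0.599). Without array A of 1 µM SAHA 1 class I gene was higher. HLA probes can be shared by related class I genes.

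Of 20 tested cytoskeletal genes, 10 were higher, 1 was lower and 9 did not pass, with a median difference of 0.29. Over all genes tested, 18.6% were higher and 18.3% lower. MARCKS passed the detection filter only through the 1 µM arrays, so it could count only as higher. Beside MARCKS, the annexin ANXA1, which binds membranes in a calcium-dependent way, had 13.26 and 13.47 at 1 µM SAHA and 10.68 and 11.09 in WT, 5.57-fold higher (limma adjusted p = 5.8e-05). ANXA2 was higher on both of its probes, by 1.17 and 0.48. The intermediate filament vimentin (VIM) had 13.90 and 13.85 at 1 µM SAHA and 12.95 and 12.88 in WT, 1.95-fold higher (limma adjusted p = 0.00023). The actin severing protein GSN was lower by 0.45 (limma adjusted p = 0.0197). Without array A of 1 µM SAHA, 6 of the list were higher. Genes of neurons and secretory vesicles were higher for 6 of 14 tested and lower for 1, and 10 others of the 24 did not pass the detection filter. Of the 6 higher, DPYSL3, which acts in axon growth, and SCG2, a granin of secretory granules, were undetected in WT. They were at least 2.50-fold and 2.20-fold higher. Both passed the detection filter only through the 1 µM arrays, so in this count they could only be higher. Without either array of 1 µM SAHA, 3 of this list were higher.

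**Figure D5:**
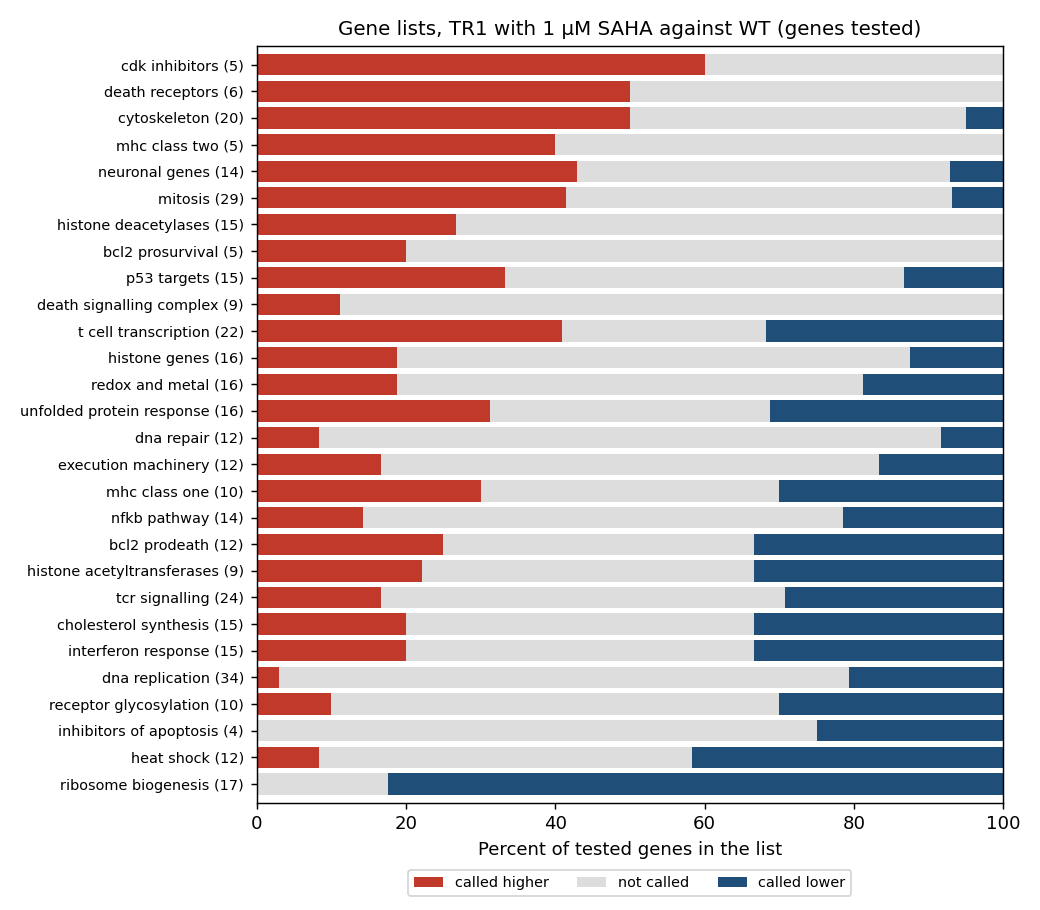
Percent of the tested genes of each list that were called higher (red), not called (grey) or called lower (blue) in TR1 with 1 µM SAHA against WT, with the number of genes tested in brackets. Over all 10592 genes 18.6% were higher and 18.3% lower. Ribosome biogenesis has the largest lower share of the lists shown (14 of 17).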

How the data were processed

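RNA of untreated and SAHA-treated Jurkat cells was measured on 8 Illumina arrays. The authors' deposited table holds probe intensity on a linear scale and is labelled as not normalized, and its array medians differ, with a detection p-value beside each deposited intensity. A second deposited table holds the same intensities after quantile normalization, as its equal array medians show. The submitters' processing notes name limma, with version and settings not given in the sources used here. Columns carry a group and the letter A or B, so they were assigned to groups only, and no column belonged to another series (0).

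Here signals were processed with limma 3.58.1 in R 4.3.3 by neqc (background fitted from detection p-values, offset 16, quantile normalization, log2). All 8 arrays entered 1 model with a mean per group (4 residual and 4.16 prior degrees of freedom), and p-values were adjusted over the 12947 probes detected on at least 2 of the 4 arrays compared. Background fitting stretches dim changes relative to uncorrected values. An undetected level is a limit: "at least" sets the brighter mean against the higher of the probe's value and the lowest detected signal per array. Probes were named from the platform annotation: 19715 have 1 gene symbol, 0 several, and 2469 are unnamed here. A gene is represented by its brightest tested probe over all 8 arrays, and 16 genes had probes called in opposite directions. Promoter windows matched 8760 of the 10592 tested genes.

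Named are the 12 largest rises and 12 largest falls among called genes whose groups do not overlap, 22 fixed genes (18 with a value) and up to 4 called members of each of 28 gene lists. Other members of the lists, cell type markers and probes that crossed detection that are named were chosen after their values were seen. The members and lists were chosen with earlier results of these data known. On simulated arrays for this comparison (22184 probes, 12061 tested), 40 of 41 changes of 1 on the log2 scale and 18 of 44 of 0.5 were called, and 2 of 111 calls were false. Far fewer probes were changed there than were called in the data, so these shares need not hold for the data. Alternatives covered background, scaling, filter, variance model, arrays fitted, deposited normalized values, a replicate block and leaving out each array.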

Additional observations from a re-analysis of the deposited data

How the results depend on the processing

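No called probe changed sign under any of the 17 alternatives in which it was tested, and 100 of the 119 called genes named by the rule kept their call in all of them. The 19 that lost it at least once include CYLD, HDAC8, GALNT12, KAT2A, FANCG, BIRC6, PARP1 and XBP1. When each of the 8 arrays was left out in turn, the number of called probes lay between 3091 and 4252, the number higher between 1459 and 2132 and the number lower between 1606 and 2120. The lowest counts came without an array of 1 µM SAHA. Probes at least 2-fold higher and lower lay between 355 and 517 and between 252 and 295 in the same way. Without background correction, 185 were at least 2-fold higher and 121 lower, since dim probes then change less. The deposited normalized values gave the same 185 and 121 with and without the replicate block. They too are quantile-normalized intensities without background correction, so this is nearly the same setting counted again among the 17 and no separate check. Between 105 and 206 probes appeared and between 11 and 33 disappeared when 1 array was left out. No probe can appear without an array of 1 µM SAHA, or disappear without an array of WT, since the filter needs 2 detected arrays, so these were not counted. Genes that did not pass changed sign: leaving out 1 array moved FADD between -0.01 and 0.08, MCL1 between -0.48 and 0.28, XIAP between -0.15 and 0.18 and HDAC1 between 0 and 0.04, and HDAC1 was at -0.10 with median scaling. With only the 4 arrays compared, 3527 of the 4655 calls remained. The replicate letters pair no samples in the labels. The duplicate differences of 1 µM SAHA and WT correlated at 0.17 across probes, and the replicate block of array letters gave 5137 calls and moved no probe count by over 1.5 times. Among the lists it gave 7 in place of 4 T cell receptor pathway genes higher, and 1 in place of 0 death receptor list genes lower, as 7 other alternatives also did. Counts without 1 array also fell for sterol synthesis (5 lower, 2 without 1 µM array A), histone deacetylases (4 higher, 0 without WT array A) and acetyltransferases (3 lower, 0 without WT array A or 1 µM array A). Likewise histone genes had 2 lower and 0 without any 1 array of WT or 1 µM SAHA, and interferon-stimulated genes 5 lower and 3 higher, against 2 and 1 without 1 µM array B. The unfolded protein response list had 5 higher, 2 without 1 µM array A, and 5 lower, 3 without WT array A or 1 µM array B. The execution list had 2 higher and 1 without WT array B or either 1 µM array. Signal over background limits the dim genes: 257 tested probes were undetected on both WT arrays and 207 on both arrays of 1 µM SAHA.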

Other observations

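The shares below are read beside the 18.6% of genes higher and 18.3% lower over all 10592 tested. Of 15 tested histone deacetylases and sirtuins, 4 were higher and 0 lower with limma, and 1 was lower at an unadjusted p below 0.05. Higher were HDAC9 by 1.01 on the log2 scale (limma adjusted p = 0.00901), HDAC5, HDAC8 and SIRT4. HDAC1 and HDAC2, the class I enzymes that SAHA inhibits, did not pass (limma adjusted p = 0.897 and 0.502). Among 9 acetyltransferases, KAT2B was higher by 0.72 (limma adjusted p = 0.00103) and KAT6A by 0.40, whereas EP300, KAT2A and KAT5 were lower. Histone genes were higher for 3 of 16 tested and lower for 2. The linker histone H1-10 had 11.12 and 11.28 at 1 µM SAHA and 10.02 and 10.35 in WT, and H2BC5 was higher by 1.10 on its brighter probe and by 2.72 on the other. The p53 target list had 5 of 15 higher and 2 lower, a lower count that was 1 in 12 of 17 alternatives, with TP53INP1 3.64-fold (limma adjusted p = 3.28e-05) and SESN1 2.00-fold higher (limma adjusted p = 0.000508).

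The endoplasmic reticulum chaperone HSPA5 was 1.80-fold lower (limma adjusted p = 0.000538) and the transcription factor XBP1 higher by 0.75, in a list with 5 of 16 higher and 5 lower. Cytosolic chaperones were lower for 5 of 12 and higher for 1, the co-chaperone BAG3. TXNIP, the thioredoxin inhibitor, had 9.86 and 9.70 at 1 µM SAHA and 7.55 and 8.64 in WT (log2 difference 1.68, limma adjusted p = 0.00293), and SRXN1, sulfiredoxin, was 2.44-fold lower (limma adjusted p = 0.000186). That redox list had 3 of 16 higher and 3 lower, near the shares over all genes. Sterol synthesis genes were lower for 5 of 15, such as MVD, and higher for 3, such as INSIG1. TNFAIP3, an inhibitor of NF-kB, was 2.37-fold higher (limma adjusted p = 0.000318) and the subunit NFKB2 1.75-fold lower (limma adjusted p = 0.00086), with 2 of 14 higher and 3 lower in the list, also near those shares. Interferon-stimulated genes were lower for 5 of 15 and higher for 3, with IFI35 3.01-fold lower (limma adjusted p = 0.000119). Among the 3 higher, XAF1 passed the detection filter only through the 1 µM arrays, so it could count only as higher. Glycosylation enzymes were higher for 1 of 10 and lower for 3, and DNA repair genes for 1 of 12 each way.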
